A study of Solanum tuberosum with 6 samples.

Results

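Small GTPases and the proteins of vesicle trafficking were represented by 94 of 10499 cDNA clones on the potato arrays. They were chosen by words in the annotation of each clone (Rab, Rac, Ras-related, small GTP, GTP-binding protein, syntaxin, SNARE, synaptobrevin, clathrin, coatomer, ADP-ribosylation factor, vacuolar sorting, Sec proteins and dynamin), leaving out elongation factors and kinases. The word rule itself uses no measured value. All 94 are called trafficking clones below, although several are no trafficking proteins by their names. The RNA came from first and second leaves of Solanum tuberosum cv. PS3, raised in vitro and then acclimatized in pots of soil and sand for 2 months. Salt plants were watered with 75 mL of 150 mM NaCl and control plants with the same amount of tap water, and leaves were taken 1 and 3 days later from different sets of plants. Each of the 6 arrays, 3 per day, compared a salt sample with a control sample of the same day, and each array of a day was a separate biological replicate.

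Vesicles carry proteins and membrane between the endoplasmic reticulum, the Golgi, the vacuole and the plasma membrane. Small GTPases of the Arf and Sar1 family recruit coats that bud a vesicle, Rab GTPases guide it to its target, and SNARE proteins fuse it with the target membrane. Rac and Rop GTPases signal to the cytoskeleton and the plasma membrane, and sorting receptors send cargo to the plant vacuole, which is also where plant cells store salt.

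Every value below is a log2 ratio, a difference between treatments and not a level, so neither the leaf identity of the samples nor the abundance of a clone could be checked. The direction is likely salt over control and is not stated: the labels mark control as the reference. Within each day replicate 2, with its dyes reversed, had r of 0.475 to 0.639 with the other arrays over all clones. This shows that the arrays of a day run in the same direction, but it cannot tell which direction. If the ratios run the other way, every direction given here turns. In bulk leaves, fewer cells of a type and less RNA per cell cannot be told apart. Between 7867 and 10381 clones were measured per array, and precision is limited by how few arrays there are. Replicate 1 of day 3 stood apart. Its r with the day 1 arrays was between -0.086 and 0.031 across all clones, and -0.29, -0.511 and -0.39 across the 94 clones, which are not independent. Results that rest on that array are given with and without it.

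On day 1 the trafficking clones moved both ways: 10 of 91 tested rose with salt and 8 fell, or 19.8%, near the 18.6% called among all 9738 clones tested (8.11% higher and 10.5% lower). A clone was called at an adjusted p under 0.05 in limma with Benjamini-Hochberg adjustment over all clones. Among the clones that rose were the coat-recruiting GTPase Sar1 (0.99 and 0.94) and a nucleolar GTP-binding protein that is no trafficking protein (0.92). The rest were a pair for an activating protein of Rac, an Arf and 4 fusion and fission clones (0.43 to 0.65). Of the 8 that fell, 7 had annotations naming a GTP-binding protein without a word for these families. Wording alone sets them apart. The median over the 91 clones was 0.11, beside 0.03 over all clones. On day 3 none of 89 rose and 1 fell, or 1.12% against 6.34% of all clones (1.93% higher and 4.42% lower). The count on day 3 was 4, all lower, without replicate 1 of that day. At an unadjusted p under 0.05, 17 of the 89 passed on day 3, which is 19.1% beside 18.7% of all clones. Between the days, the salt ratio increased in 5 and decreased in 8 of 89 clones, or 14.6% against 11.6% of all clones (6.53% increased and 5.08% decreased). In total 22 clones were called in at least one of these comparisons and 72 in none. Calls on day 1 depended on its arrays: 8, 4 and 8 calls remained of the 18 when replicate 1, 2 or 3 of day 1 was left out. Without replicate 1 of day 3, 25 were called. Replicate 2 is the only array of its day with its dyes reversed, so without it the dye term rests on the other day. Precision then falls, and a call can be lost although the fitted value hardly moves. Without replicate 2 of day 1, STMDF08 stayed at 0.46 on day 1 (adjusted p = 0.284), whereas STMGW93 went from 0.94 to 0.76 (adjusted p = 0.084). The calls between days numbered 3, 6 and 4 without replicate 1, 2 or 3 of day 1, 6 without replicate 2 of day 3 and 14 without its replicate 1. Shares of all clones with an array left out were not computed. These counts therefore do not show whether the trafficking clones lose or gain calls differently from all clones. A fit without the dye term lost the day 1 calls of STMGJ26 (adjusted p = 0.0579), STMDZ65 (adjusted p = 0.0562), STMIL12 (adjusted p = 0.0969) and STMDH34 (adjusted p = 0.115), and the calls between days of STMCQ88 (adjusted p = 0.0678), STMGI03 (adjusted p = 0.0855), STMGL28 (adjusted p = 0.0772), STMDZ54 (adjusted p = 0.104) and STMIL12 (adjusted p = 0.12), all described below. Scaling the arrays to equal spread lost STMDH34 on day 1 (adjusted p = 0.0863) and STMGL28 (adjusted p = 0.0576) and STMDZ54 (adjusted p = 0.0784) between days.

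**Figure D1:**
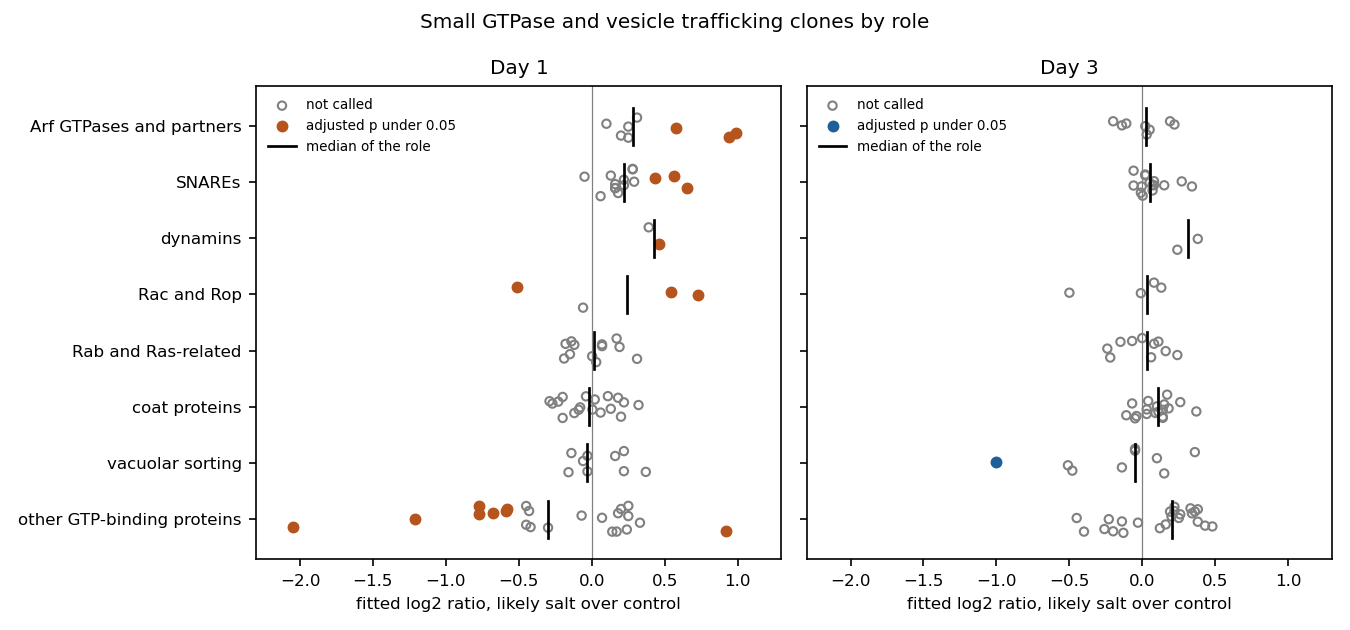
Fitted log2 ratio (horizontal axis, likely salt over control) of every tested clone by role, for day 1 and day 3. All 8 clones annotated as Arf, Arf-like or Sar1BNt lie above 0 on day 1 (SAR2 is plotted with the other GTP-binding proteins, with 1 clone at -0.07). The 12 Rab clones stay between -0.19 and 0.31, and the lowest values on day 1 belong to other GTP-binding proteins.

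Of the clones annotated as Arf, Arf-like or Sar1BNt, 3 of 8 rose on day 1, beside 8.11% of all clones, and none was called on day 3. The SAR2 clones, of the Sar1 family too but placed elsewhere by their wording, were at 0.25 and -0.07 on day 1 and at -0.40 and -0.45 on day 3 with no call on either day. All 8 Arf, Arf-like and Sar1BNt clones had a positive fitted value on day 1, beside 5343 of 9738 among all clones. Their median was 0.28 on day 1, against 0.03 on day 3. Sar1 starts the assembly of the coat that carries cargo out of the endoplasmic reticulum. A clone like the small GTPase Sar1BNt (STMDT18) read 0.48, 1.27 and 0.99 on the day 1 arrays and -0.35, 0.02 and -0.21 on the day 3 arrays. Its day 1 values lay above all day 3 values. It rose by 0.99 (SE 0.14, adjusted p = 0.0011) on day 1, was at -0.11 on day 3, and differed between the days by -1.10 (SE 0.19, adjusted p = 0.0063). A second clone with this annotation (STMGW93), from the same assembled transcript and so not independent of the first, read 0.52, 1.17 and 1.04, and then -0.19, -0.19 and -0.12. It rose by 0.94 (SE 0.14, adjusted p = 0.00169) and differed between days by -1.08 (SE 0.19, adjusted p = 0.00815). On both clones the array with salt in Cy5 gave the highest day 1 value, and replicate 1 the lowest. Without replicate 2 the day 1 adjusted p of STMDT18 was 0.0506 and that of STMGW93 was 0.084. The difference between days of STMGW93 had 0.0554 without that array and 0.0501 without replicate 2 of day 3, while that of STMDT18 held under all 13 alternatives.

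Arf recruits coats at the Golgi. A clone annotated as rice ADP-ribosylation factor (STMGZ43) read 0.43, 0.64 and 0.59 on day 1 and -0.01, 0.30 and 0.28 on day 3. The days did not overlap, and it rose by 0.58 on day 1 (SE 0.12, adjusted p = 0.00888). The difference between days did not pass (-0.36, adjusted p = 0.205), and the day 1 call was lost when replicate 2 or 3 of day 1 was left out (adjusted p = 0.151 and 0.0575). The Arf clones with the annotation At2g18390, STMDT49 and STMIW22, also share a transcript, and had 0.31 and 0.25 on day 1 without passing. The remaining clones, a coffee-like ADP-ribosylation factor (STMCY84, 0.25), an ARF-like small GTPase (STMJN46, 0.20) and an ADP-ribosylation factor-like protein (STMEV78, 0.10), did not pass either. STMEV78 was unlike the others on single arrays, at -0.54 on replicate 1 and 0.65 on replicate 2 of day 1.

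Of the SNAREs, the proteins that fuse vesicles with target membranes, 3 of 15 clones rose on day 1 and none fell (20% called, near the 18.6% of all clones). The fitted value was positive for 14 of the 15, beside 5343 of 9738 among all clones, with a median of 0.22. On day 3 none was called and the median was 0.05. Synaptobrevin 1 (STMIY74), a SNARE of the vesicle membrane, read 0.18, 0.91 and 0.69 on day 1 and 0.29, 0.40 and 0.17 on day 3. It was positive on all 6 arrays, with replicate 1 of day 1 within the range of day 3, and rose by 0.65 on day 1 (SE 0.14, adjusted p = 0.00957). On day 3 it stood at 0.34 (SE 0.14, adjusted p = 0.215). Nt-syr1 (STMEW02), a tobacco syntaxin of the plasma membrane known for its part in abscisic acid responses, read 0.31, 0.69 and 0.60, then -0.03, 0.26 and 0.51. Its days overlapped, and it rose by 0.56 on day 1 (SE 0.14, adjusted p = 0.0233) with 0.27 on day 3. Golgi SNARE 12 (STMGJ26), which acts in traffic to and within the Golgi, read 0.54, 0.43 and 0.26, then 0.04, 0.26 and 0.11. It rose by 0.43 on day 1 (SE 0.12, adjusted p = 0.0347).

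Each of these fusion calls was lost without some of the day 1 arrays. Without replicate 2 of day 1 the adjusted p was 0.241 for STMIY74, 0.321 for STMEW02 and 0.233 for STMGJ26. Their fitted values were then 0.52, 0.47 and 0.49. Without replicate 3 the adjusted p was 0.0659, 0.117 and 0.078 in that order. Without replicate 1 STMEW02 had 0.0618 and STMGJ26 0.148, and without replicate 2 of day 3 STMGJ26 had 0.0851. Of the uncalled members, the v-SNARE 11-like clones STMDW81, STMEL91 and STMFB06, all from a shared transcript, had 0.22, 0.16 and 0.28 on day 1. Syntaxin-like STMEH94 had 0.29 (adjusted p = 0.111), and VAP27-2 (STMIK07), a protein that binds SNAREs of the synaptobrevin type and is no SNARE itself, had 0.28 (adjusted p = 0.127). The only negative SNARE on day 1 was the Bet1-like STMGL05 at -0.05. None of the 15 was called in the difference between days, although 14 of the 15 had a lower value on day 3. Among all clones 4862 of 9030 were lower on day 3. Some of the 15 share a transcript, so they are not all independent.

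Dynamins, the GTPases that pinch off vesicles, had a pair of clones from the same transcript. STMDF08 read 0.64, 0.48 and 0.24 on day 1 and 0.29, 0.40 and 0.41 on day 3. Values were positive on every array and overlapped between days. It rose by 0.46 on day 1 (SE 0.12, adjusted p = 0.0312) and stood at 0.38 on day 3 (SE 0.12, adjusted p = 0.126). STMIN63 read 0.71, 0.21 and 0.32, then 0.22, 0.27 and 0.32, and did not pass on day 1 (0.39, SE 0.13, adjusted p = 0.0647). The call of STMDF08 was lost (adjusted p = 0.146 and 0.284) when replicate 1 or 2 of day 1 was left out, and with replicate 2 of day 3 left out (adjusted p = 0.0668), while STMIN63 passed without replicate 1 of day 3 (adjusted p = 0.0424).

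Among Rac and Rop clones the changes lay in the GTPase activating proteins, which switch these GTPases off, and they went in opposite directions. Rac GTPase activating protein 1 had a pair of clones from the same transcript. STMGL28 read 0.66, 0.86 and 0.54 on day 1 and -0.20, 0.20 and 0.11 on day 3. It rose by 0.73 on day 1 (SE 0.12, adjusted p = 0.00273) and was at 0.08 on day 3. STMDZ65 read 0.53, 0.59 and 0.40, then -0.43, 0.18 and 0.12, and rose by 0.54 on day 1 (SE 0.14, adjusted p = 0.023). In both, every day 1 array lay above every day 3 array, and the lowest value was on replicate 1 of day 3.

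The difference between days passed for STMGL28 (-0.65, SE 0.16, adjusted p = 0.0336) and not for STMDZ65 (-0.55, SE 0.19, adjusted p = 0.101). Without replicate 1 of day 3 the difference of STMGL28 was -0.56 (adjusted p = 0.049), and leaving out replicate 1, 2 or 3 of day 1, or replicate 2 of day 3, lost the call (adjusted p = 0.127, 0.153, 0.0967 and 0.14). On day 1 STMGL28 had an adjusted p of 0.0825 without replicate 2, and STMDZ65 had 0.126, 0.167 and 0.0799 without replicate 1, 2 or 3. A clone with another annotation from that transcript (STMGS50) read -0.17, 0.42 and -0.07 on day 1 and did not pass (0.13, adjusted p = 0.497). Rac GTPase activating protein 2 (STMGP51) read -0.36, -0.60 and -0.50 on day 1, and -0.51 and -0.34 on replicates 1 and 3 of day 3, where replicate 2 has no value. It fell by 0.51 on day 1 (SE 0.12, adjusted p = 0.023) and was at -0.50 on day 3 without passing (SE 0.19, adjusted p = 0.194). Its day 1 adjusted p was 0.0764 without replicate 1 and 0.105 without replicate 3. Rac-like GTPase 1 (STMHY57), the only GTPase of this family that could be tested, was at -0.06 and 0.13. RAC13 (STMHY43) and ARAC3 (STMJG41) were measured on too few arrays for the fit with its dye term. RAC13 read 0.77 and 0.36 on replicates 1 and 3 of day 1.

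**Figure D2:**
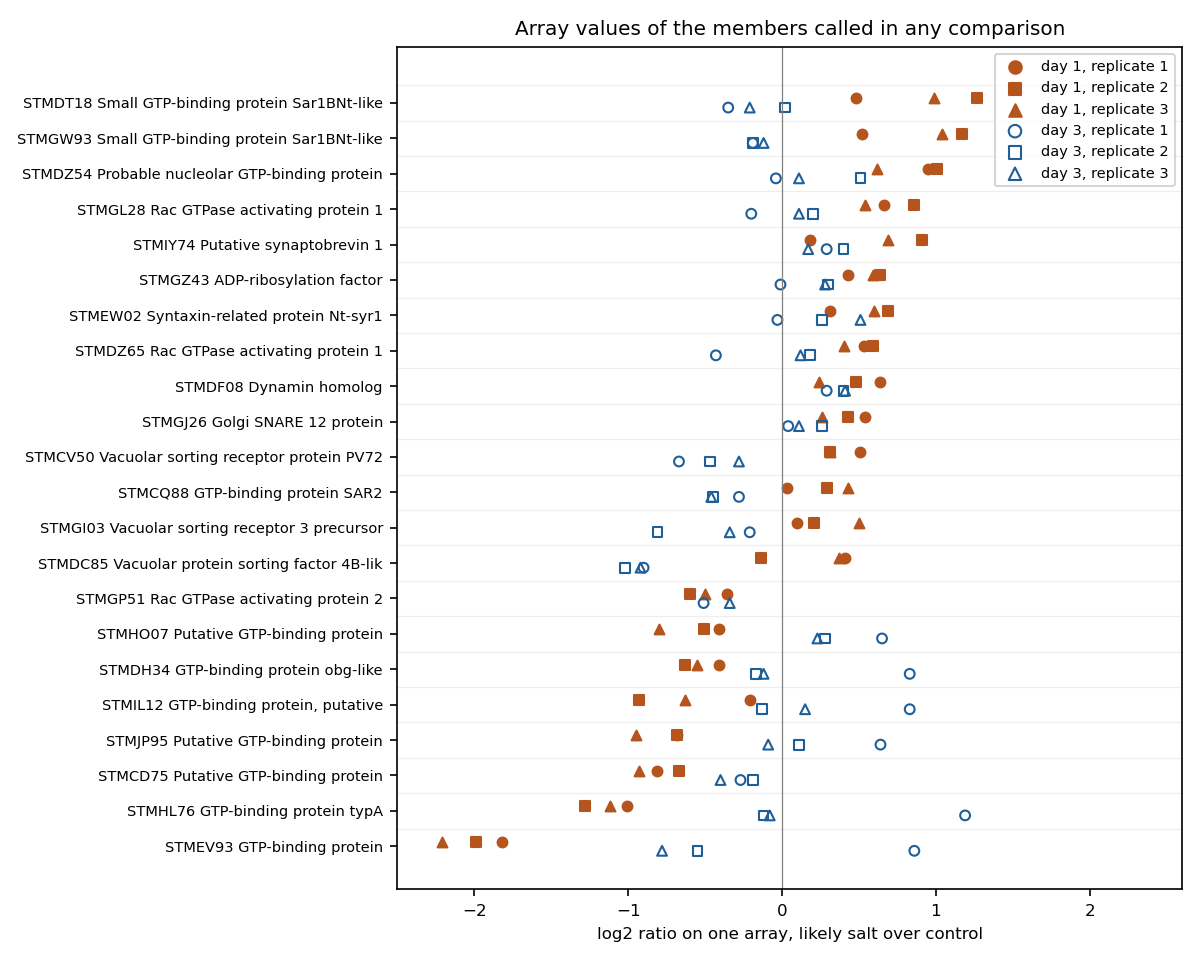
Log2 ratio on each array (horizontal axis, likely salt over control) for the 22 clones called on day 1, on day 3 or between the days, with day 1 arrays filled and day 3 arrays open. The Sar1 clones reach 1.27 on day 1 and lie at or below 0.02 on day 3, while the vacuolar sorting factor 4B-like clone lies between -1.02 and -0.90 on day 3.

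The Rab GTPases gave no call on either day, beside 18.6% of all clones on day 1 and 6.34% on day 3. Whether so few clones differ from those shares was not tested. The 12 Rab and Ras-related clones lay between -0.19 and 0.31 on day 1, with a median of 0.01, and the 10 tested on day 3 between -0.24 and 0.24. At an unadjusted p under 0.05, 0 passed in limma on day 3, beside 18.7% of all clones. On day 1, where the share of all clones was not computed, 1 passed. This was a tobacco Ras-related GTP-binding protein (STMGV42), which read 0.21, 0.32 and 0.37 and then -0.08, -0.16 and -0.45. Its days did not overlap, yet neither day 1 (0.31, SE 0.12, adjusted p = 0.119) nor the difference (-0.53, SE 0.17, adjusted p = 0.0801) passed, except on day 1 without replicate 1 of day 3 (adjusted p = 0.0494). Rab7 directs traffic to the vacuole, and its clones Nt-rab7a (STMDF16) and Nt-rab7c (STMIB50) were at -0.15 and -0.18 on day 1. The Rab11 type acts in recycling and secretion. Its clones RAB11B (STMCQ64), Rab11C (STMFB11), Rab11D (STMHW22) and Rab11e (STMJL18) were at -0.12, 0.17, 0.0023 and -0.14. RHN1, a Rab5 type of the endosome, had a pair of clones at 0.03 (STMED29) and -0.19 (STMIT59).

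The coats and translocation proteins gave no call either, beside 18.6% of all clones on day 1 and 6.34% on day 3. A difference from those shares was not tested. The 18 tested clones lay between -0.29 and 0.32 on day 1 with a median of -0.02. On day 3 the median was 0.11 with 14 positive, beside 4771 of 9032 among all clones. At an unadjusted p under 0.05, 1 passed in limma on day 3, beside 18.7% of all clones. On day 1, where the share of all clones was not computed, 2 passed. Coatomer coats the vesicles of the Golgi, and its alpha subunit (STMHU02) read 0.13, -0.57 and -0.21 on day 1 and 0.56, 0.09 and 0.35 on day 3. Its difference between days was 0.55 (SE 0.17, adjusted p = 0.0724). A putative coatomer beta prime subunit (STMHW54) read 0.41, 0.28 and 0.46 on day 3, at 0.37 (SE 0.12, adjusted p = 0.105). It passed when the arrays were scaled to equal spread (adjusted p = 0.0461). The Sec24-like clones STMGF51 and STMGN24, of the coat that Sar1 recruits, were at 0.13 and 0.11 on day 1, and neither passed. A Sec61 alpha clone (STMIT04), part of the channel into the endoplasmic reticulum rather than of a coat, was at 0.32 on day 1 (adjusted p = 0.133).

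A clathrin assembly protein like At5g35200 (STMCR85) separated by dye. It read 0.91, -0.65 and 1.02 on day 1 and 0.58, -0.28 and 0.66 on day 3, positive on the arrays with salt in Cy3 and negative on both arrays with salt in Cy5. Its dye term was 0.63 (SE 0.10, adjusted p = 0.0492 in limma), the only called dye term among the trafficking clones. With the dye in the fit, its ratios of 0.22 and 0.11 did not pass. A dye term had an unadjusted p under 0.05 in 12.1% of 91 trafficking clones and 18.6% of all clones. A clone of another annotation from that transcript (STMGD66) read 0.39, 0.26 and 0.08 on day 1 and showed no such split.

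Vacuolar sorting gave the only call of day 3. None of its 9 clones was called on day 1, beside 18.6% of all clones. On day 3, 1 fell, beside 4.42% of all clones. In 3 the salt ratio decreased between days, beside 5.08% of all clones. The clone like vacuolar protein sorting factor 4B (STMDC85) belongs to the VPS4 ATPases, known from yeast to take apart the complexes that bud vesicles into the late endosome. It read 0.41, -0.14 and 0.37 on day 1 and -0.90, -1.02 and -0.92 on day 3. The day 3 arrays lay close together and below every day 1 array. It was at 0.16 on day 1 (SE 0.12, adjusted p = 0.426), fell by 1.00 on day 3 (SE 0.12, adjusted p = 0.00105) and differed between days by -1.16 (SE 0.16, adjusted p = 0.00317). Both calls held under all 13 alternatives tried, with -0.97 on day 3 (adjusted p = 0.00279) and -1.12 between days (adjusted p = 0.00448) when replicate 1 of day 3 was left out.

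Vacuolar sorting receptors carry soluble proteins from the Golgi to the vacuole, and 2 of 3 such clones were positive on every day 1 array and negative on every day 3 array. The share of all clones with these signs was not computed. Days that do not overlap, in either direction, were found in 30.8% of all clones measured on all 6 arrays. A receptor like PV72 of pumpkin (STMCV50) read 0.51, 0.31 and 0.31 and then -0.67, -0.47 and -0.28. Neither day passed on its own (0.37 with adjusted p = 0.0775, and -0.48 with adjusted p = 0.0584), whereas the difference did (-0.85, SE 0.17, adjusted p = 0.0144). Receptor 3 (STMGI03) read 0.10, 0.21 and 0.50 and then -0.21, -0.81 and -0.34, with a difference of -0.72 (SE 0.18, adjusted p = 0.0346) and -0.51 on day 3 (adjusted p = 0.0606). Receptor 1 (STMHY73) was at -0.16 and -0.05, with no call.

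Without replicate 1 of day 3 the differences were -0.72 for STMCV50 (adjusted p = 0.0193) and -0.80 for STMGI03 (adjusted p = 0.0275). The adjusted p of STMCV50 was 0.0863 and 0.0617 without replicate 1 or 2 of day 1 and 0.0559 without replicate 2 of day 3. That of STMGI03 was 0.0546, 0.219 and 0.144 without replicate 1, 2 or 3 of day 1, and 0.202 and 0.0542 without replicate 2 or 3 of day 3. On day 3 STMGI03 passed without replicate 1 of that day (-0.57, adjusted p = 0.043) and stood at -0.32 without its replicate 2 (adjusted p = 0.753). STMCV50 passed on day 1 without replicate 1 of day 3 (adjusted p = 0.0347), and both passed on day 3 with arrays scaled to equal spread (adjusted p = 0.0274 for STMCV50 and 0.0297 for STMGI03). Of the retromer and other sorting proteins, Vps29 (STMEN91) was at -0.03 and -0.05, the Vps26-like clone (STMCA75) at -0.03 and -0.14, and a sorting-associated protein (STMHI20) at -0.14 and 0.36 (day 3 adjusted p = 0.118).

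**Figure D3:**
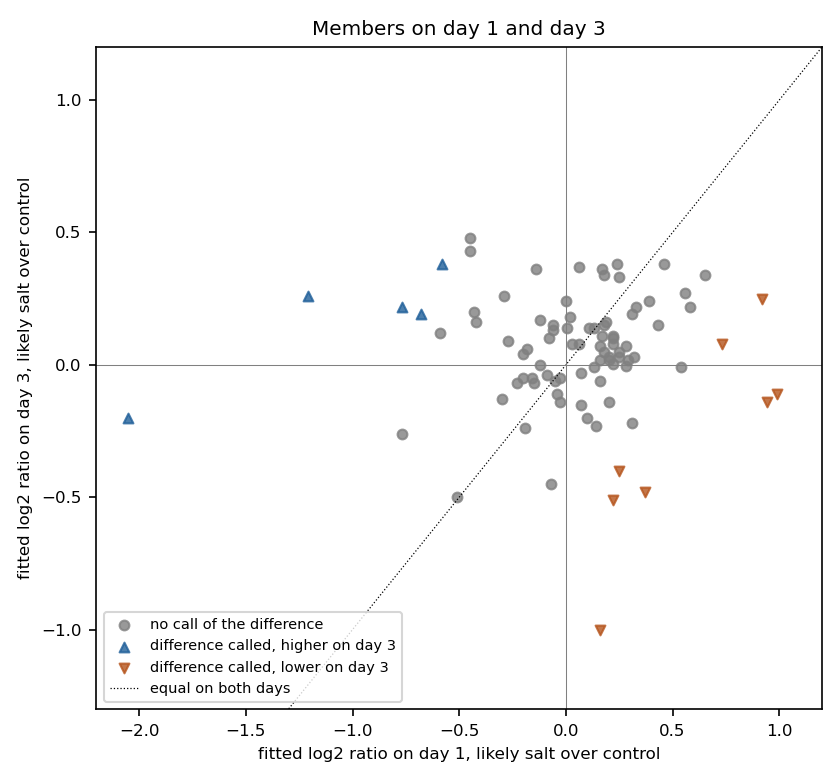
Fitted log2 ratio of each clone tested on both days (n = 89), with day 1 on the horizontal axis and day 3 on the vertical axis, likely salt over control. The clones called between days lie away from the line of equal values: Sar1 at 0.99 and -0.11, the 4B-like sorting factor at 0.16 and -1.0, and the pea-like GTP-binding protein STMEV93 at -2.05 and -0.20.

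The 23 clones whose annotation names a GTP-binding protein without a word for the other roles held most of the falls: 7 fell and 1 rose on day 1. A clone placed here by wording can still belong to one of those families, as SAR2 does. Among all clones 10.5% were called lower and 8.11% higher on that day. The median of the 23 was -0.30. On day 3 none was called, beside 6.34% of all clones, and the median was 0.20. Several of the 23 are no trafficking proteins by their names. A clone like a pea GTP-binding protein (STMEV93) read -1.82, -1.99 and -2.21 on day 1 and 0.86, -0.55 and -0.78 on day 3. It was the lowest trafficking clone on every day 1 array, and replicate 1 of day 3 had the opposite sign to the others. It fell by 2.05 on day 1 (SE 0.27, adjusted p = 0.000882) and the ratio increased by 1.85 to day 3 (SE 0.37, adjusted p = 0.0127). A typA clone (STMHL76), named after a ribosome-associated GTPase of bacteria, read -1.01, -1.28 and -1.12, then 1.19, -0.12 and -0.08. It fell by 1.21 on day 1 (SE 0.22, adjusted p = 0.00404), with a difference between days of 1.47 (SE 0.30, adjusted p = 0.0133). An obg-like clone (STMDH34), named after a ribosome-associated bacterial family too, read -0.41, -0.63 and -0.55, then 0.83, -0.17 and -0.12, and fell by 0.59 on day 1 (SE 0.18, adjusted p = 0.0488).

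The clones STMHO07, STMIL12 and STMJP95, annotated as putative GTP-binding proteins of rice and Arabidopsis, fell by 0.58, 0.68 and 0.77 on day 1 (adjusted p = 0.018, 0.0147 and 0.00859 in limma). Between days they increased by 0.96 (SE 0.19, adjusted p = 0.0125), 0.87 (SE 0.21, adjusted p = 0.0308) and 0.99 (SE 0.22, adjusted p = 0.0194). All were negative on the 3 day 1 arrays, from -0.95 to -0.21, and highest on replicate 1 of day 3, at 0.65, 0.83 and 0.64. Of the 7 clones that fell, 6 exceeded 0.5 on that array, and on replicates 2 and 3 of day 3 the 7 lay between -0.78 and 0.28. Without replicate 1 of day 3 the differences between days stayed called at 1.32 for STMEV93 (adjusted p = 0.00303), 1.06 for STMHL76 (adjusted p = 0.00407), 0.81 for STMHO07 (adjusted p = 0.0191), 0.67 for STMIL12 (adjusted p = 0.049) and 0.75 for STMJP95 (adjusted p = 0.0192).

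The green leaf markers, 31 clones for the Rubisco small subunit and chlorophyll-binding proteins, were also low on the day 1 arrays and highest on replicate 1 of day 3. Their median was -2.09, -1.51 and -1.66 on the day 1 arrays, and 0.62, -0.28 and -0.37 on those of day 3. On day 1 27 of the 31 fell, beside 10.5% of all clones, and on day 3 2 fell, beside 4.42%. The fitted values of the markers ranged from -2.75 to -0.13 on day 1 and from -0.73 to 0.41 on day 3. Their part in the falls of the GTP-binding clones was not tested. Tuber storage markers gave 1 fall among 7 tested and senescence markers 1 rise among 4 on day 1 (10.5% lower and 8.11% higher among all clones).

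Other libraries also moved these calls. Without replicate 1 of day 1 the day 1 adjusted p was 0.0538 for STMHL76, 0.18 for STMDH34, 0.0576 for STMHO07, 0.0543 for STMIL12 and 0.0573 for STMJP95. Without replicate 2 of day 1 it was 0.168, 0.132, 0.147 and 0.0724 for STMDH34, STMHO07, STMIL12 and STMJP95, and without replicate 3 it was 0.183, 0.115, 0.089 and 0.0532. STMDH34 was lost without replicate 2 of day 3 as well (adjusted p = 0.0811). For the difference between days, leaving out replicate 1 of day 1 gave adjusted p = 0.0942 for STMEV93, 0.0997 for STMHL76, 0.0588 for STMHO07, 0.0932 for STMIL12 and 0.0945 for STMJP95. Leaving out replicate 3 of day 1 gave 0.0528, 0.0538, 0.0623, 0.13 and 0.0856 in that order, and STMIL12 had 0.096 without replicate 2 of day 1 and 0.0874 without replicate 2 of day 3. The day 1 fall of STMEV93 held under all 13 alternatives.

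**Figure D4:**
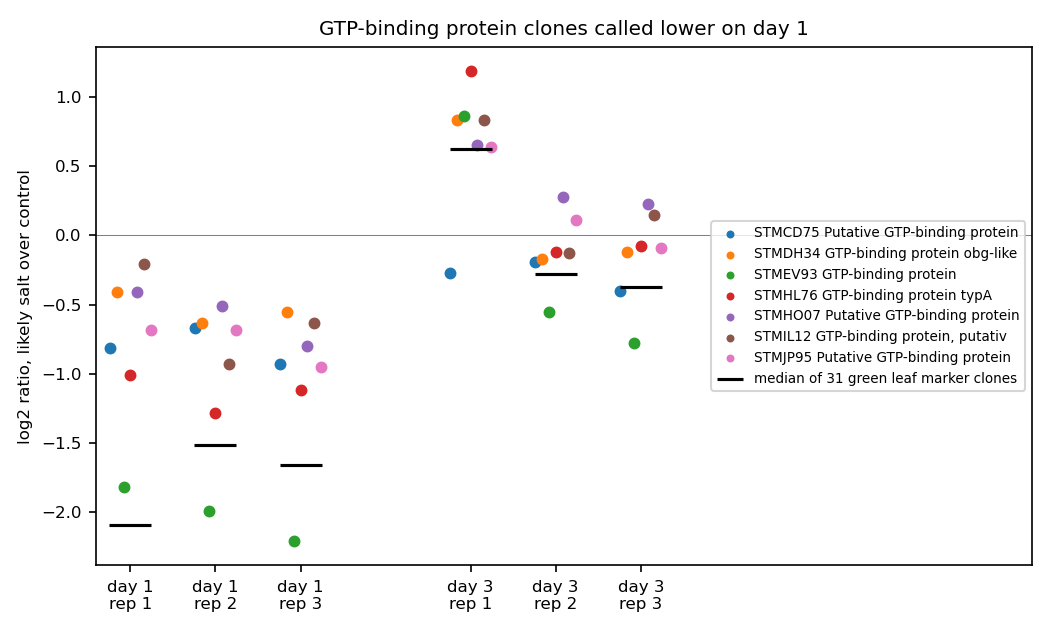
Log2 ratio (vertical axis, likely salt over control) on each of the 6 arrays for the 7 GTP-binding protein clones that fell on day 1, with the median of 31 green leaf marker clones as black bars. On replicate 1 of day 3, 6 of the 7 clones lie above 0.5 and the marker median is 0.62.

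The only clone of this group that rose was a probable nucleolar GTP-binding protein 1 (STMDZ54), which in yeast works in ribosome assembly. It read 0.95, 1.01 and 0.62 on day 1 and -0.04, 0.51 and 0.11 on day 3, with no overlap. It rose by 0.92 on day 1 (SE 0.12, adjusted p = 0.00106), a call that held under all 13 alternatives. Its difference between days was -0.67 (SE 0.17, adjusted p = 0.0361), and this call was lost without any 1 of the 6 arrays, with adjusted p from 0.0562 without replicate 3 of day 3 to 0.139 without replicate 1 of day 1 (0.0566 without replicate 1 of day 3).

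SAR2, a tomato GTPase of the Sar1 family, had a pair of clones from the same transcript, placed here by its wording. STMCQ88 read 0.03, 0.29 and 0.43 on day 1 and -0.28, -0.45 and -0.46 on day 3. Every day 1 value was above 0 and every day 3 value below. Neither day passed (0.25 and -0.40, adjusted p = 0.221 and 0.113), but the difference did (-0.65, SE 0.17, adjusted p = 0.0433; -0.71 without replicate 1 of day 3, adjusted p = 0.0345). Leaving out replicate 1, 2 or 3 of day 1, or replicate 2 or 3 of day 3, lost that call (adjusted p = 0.0693, 0.2, 0.188, 0.185 and 0.0881). STMCF83 read -0.40, 0.34 and -0.38, then -0.32, -0.40 and -0.88, at -0.07 on day 1 and -0.45 on day 3 (SE 0.15, adjusted p = 0.12). Without replicate 1 of day 3 its day 3 value was -0.64 (adjusted p = 0.0132) and its difference -0.60 (adjusted p = 0.0403), whereas without replicate 2 of day 3 its day 3 value was -0.23 (adjusted p = 0.871).

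Clones of a shared transcript show how far a clone can stand for its gene, and 24 of the 94 shared an assembled transcript with another. The Sar1BNt and dynamin pairs had the same fitted sign on both days. The Rac activating protein 1 pair did so on day 1 (0.54 and 0.73) and lay near 0 on day 3 (-0.01 and 0.08), while the clone STMGS50 of that transcript was at 0.13 on day 1. The SAR2 pair differed in sign on day 1 (-0.07 for STMCF83 and 0.25 for STMCQ88). An Arabidopsis-like putative GTP-binding protein had clones further apart. Its clone STMCD75 read -0.81, -0.67 and -0.93 on day 1 and -0.27, -0.19 and -0.40 on day 3. It fell by 0.77 on day 1 (SE 0.11, adjusted p = 0.00147) under all 13 alternatives. Clones STMCN67 and STMHS55 of the same transcript were at 0.25 (adjusted p = 0.172) and 0.18 (adjusted p = 0.33) on day 1 and at 0.33 and 0.34 on day 3. STMCN67 was positive on all 6 arrays, where STMCD75 was negative on all 6. The table does not say which clone reports the transcript, so the fall of STMCD75 belongs to that clone. The pea-like pair STMHK77 and STMHO24 both stood at -0.45 on day 1 (adjusted p = 0.15 and 0.187), with 1.18 and 1.23 on replicate 1 of day 3. Without that array both passed on day 1 (adjusted p = 0.0327 and 0.0179), and without replicate 3 of day 3 both passed between days (adjusted p = 0.009 and 0.018). The differences between days were 0.92 and 0.88 with all arrays and 0.60 and 0.48 without replicate 1 of day 3 (adjusted p = 0.0652 and 0.0735).

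**Figure D5:**
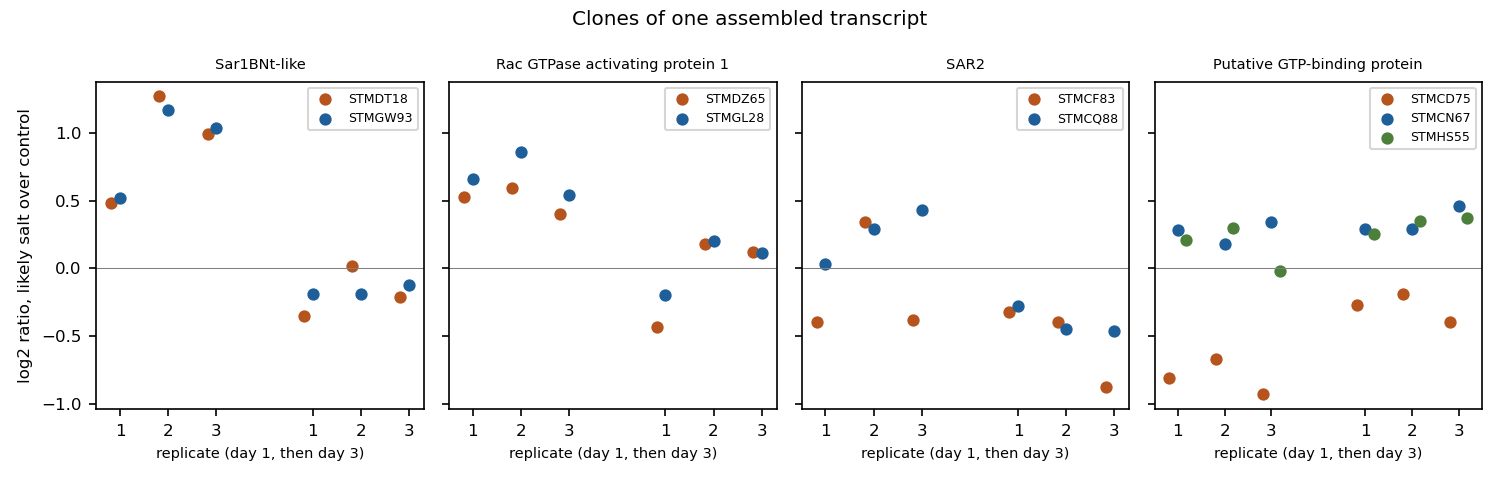
Log2 ratio (vertical axis, likely salt over control) by replicate, day 1 then day 3, for clones of 4 assembled transcripts, with colours for clones. The Sar1BNt-like clones lie close together on each array, whereas STMCD75 is negative on all 6 arrays and its partner STMCN67 positive on all 6.

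Among the 13 clones whose salt ratio differed between days, 8 decreased and 5 increased. In each the day 1 and day 3 arrays did not overlap. Choosing clones by that difference on the same arrays favours this, so it is no separate support. Of the 79 trafficking clones measured on all 6 arrays, 26 had such non-overlapping days, beside 30.8% of all clones so measured. The days share no samples. Of the 13, 9 were also called on day 1, and 4 (STMDC85, STMCV50, STMGI03 and STMCQ88) only in the difference or on day 3.

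Other trafficking genes, 70 clones picked by further words (such as annexin, exocyst, epsin, importin, Golgi and Ran binding), gave 9 rises and 2 falls among 66 tested on day 1 (16.7%, beside 18.6% of all clones). The letters of epsin had also matched 4 cathepsin protease clones, all of which rose, and without them 5 rose and 2 fell among 62 (11.3%). On day 3, 2 rose and 1 fell among 65 (4.62%, beside 6.34% of all clones). An epsin-like clone (STMHN34), of a family that helps form clathrin vesicles, read -0.19, 0.32 and 0.45 on day 1 and -1.61, -1.07 and -0.98 on day 3. As for STMDC85, every day 3 array lay below every day 1 array, and it fell by 1.18 on day 3 (SE 0.17, adjusted p = 0.00252), with a difference between days of -1.41 (SE 0.23, adjusted p = 0.00536). Ran binding protein-1 (STMDF25), of nuclear transport, read -0.32, -0.01 and -0.23 and then 0.77, 0.51 and 0.29, and rose on day 3 (0.54, SE 0.13, adjusted p = 0.0448). Annexin p34 (STMIY93), a calcium-dependent membrane-binding protein, was positive on all 6 arrays and rose on day 3 (0.47, SE 0.11, adjusted p = 0.0387).

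The authors' deposited table holds a p-value per clone and day. In the authors' deposited table it was under 0.05 for 24 of the 94 clones on day 1 (25.5%, beside 19.4% of all clones) and 13 on day 3 (13.8%, beside 9.69%).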

How the data were processed

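Per the labels' protocols, leaf RNA of salt and control plants was hybridised on dual-colour cDNA arrays, with salt in Cy3 on replicates 1 and 3 and in Cy5 on replicate 2. The authors deposited log ratios (log2 taken, base not stated) and a p-value per clone and day. No source used here states the background correction or the normalization.

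The ratios were fitted as deposited with limma 3.58.1 (R 4.3.3) over all 6 arrays, with a coefficient per day and a dye term per clone. Variances were moderated (prior degrees of freedom 6.148), and two-sided p-values were Benjamini-Hochberg adjusted over 9738 clones on day 1, 9032 on day 3 and 9030 for the difference. A clone needed at least 2 arrays of a day, and enough arrays to separate the dye term and to estimate its spread. This left 91 of the 94 clones tested on day 1 and 89 on day 3. Without the dye term, 93 were tested on day 1. The fit was tested on simulated ratios. Python 3.11.15 and pandas 2.3.3 made the summaries.

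Annotations name the most similar gene, often of another species, and no clone was placed on a genome. Roles were assigned by word patterns, so Sec14, Sec34 and Sec61 fall among coats. Clones named are those called, the leading clones by p in each role, and those sharing an annotation or transcript with them, together with others chosen after their values were seen. The members and lists were chosen with earlier results of these data known. The alternatives were scaling, centring, missing values, the dye term, thresholds, a replicate block and leaving out each array.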

Additional observations from a re-analysis of the deposited data

Results flagged for a closer look

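The salt ratio differed between day 3 and day 1 in 13 of 89 tested clones by a contrast of the fit in limma (14.6%, beside 11.6% of all clones). It decreased by -1.16 in the vacuolar protein sorting factor 4B-like clone STMDC85, by -1.10 and -1.08 in the Sar1BNt-like clones STMDT18 and STMGW93, and by -0.85 and -0.72 in the vacuolar sorting receptors STMCV50 and STMGI03. It also decreased by -0.67 in the nucleolar GTP-binding protein 1 clone STMDZ54, and by -0.65 both in Rac GTPase activating protein 1 (STMGL28) and in SAR2 (STMCQ88). It increased by 1.85 in the pea-like GTP-binding clone STMEV93, by 1.47 in typA (STMHL76), and by 0.99, 0.96 and 0.87 in the putative GTP-binding clones STMJP95, STMHO07 and STMIL12. The 5 that increased were all among the other GTP-binding proteins, and 6 of the 13 calls remain without that role. These 5 were all above 0.5 on replicate 1 of day 3, the array that stood apart, and all stayed called without it.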

How the results depend on the processing

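The count of clones called on day 1 was 18, and 4 to 25 when 1 array was left out, 10 without the other GTP-binding proteins (a choice made after seeing the data), and 14 to 22 under every other alternative. The count on day 3 was 1, and 1 to 4 with 1 array left out, 6 with arrays scaled to equal spread (2 higher and 4 lower), 4 with the replicate block and 3 at an adjusted p under 0.1. The count between days was 13, and 3 to 15 with 1 array left out, 8 without the dye term, 6 without the other GTP-binding proteins, and 9 to 19 otherwise. The cause was not tested, except that leaving out an array or a role leaves fewer samples or clones. No share of all clones was computed for these alternatives.

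The replicate numbers were not taken to pair the days, because the labels give different sets of plants for the days. The number pairs only the dye orientation. With the dye effect not removed, deviations of same-numbered arrays correlated at 0.046, 0.596 and 0.451. Replicate 1 of day 1 correlated best with replicate 3 of day 3 (0.198). These correlations do not decide on pairing, as shared dye orientation enters them. With the replicate block, which replaces the dye term, 22 clones were called on day 1, 4 on day 3 and 17 between days.

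Single clones were followed through the alternatives only if called, leading by p in their role or sharing an annotation with these. Among the clones so followed, uncalled values changed sign in 7, mostly with 1 array left out. Leaving out each array in turn, the day 1 value ranged from -0.0015 to 0.04 for STMED29, -0.0030 to 0.15 for STMEW48 and -0.29 to 0.01 for STMGF41. The day 3 value ranged from -0.13 to 0.15 for STMDZ65 (0.01 with scaled arrays), -0.41 to 0.12 for STMEV78, -0.0005 to 0.15 for STMGL28 and -0.03 to 0.07 for STMIW22. Of the other values of the clones so followed, 970 kept direction and call, 85 lost a call and 32 gained it. With ratios from 3 arrays a day and no intensities, signal over background could not be judged.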
